A study of Mus musculus with 20 samples.

Results

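The matrix metalloproteases, the ADAM and ADAMTS proteases and their TIMP inhibitors were followed through sorted cells of 2 mouse tissues. The members were the probe sets with a single gene symbol that begins with Mmp, with Adam and a digit, with Adamts, or with Timp and a digit, leaving out Mmp8 and Mmp9. The rule found 40 probe sets of 31 genes, of 10833 single-symbol probe sets of 8251 genes on the array. They comprise 13 probe sets of 11 MMP genes, 20 of 16 ADAM genes, 1 of an ADAMTS gene and 6 of 3 TIMP genes. All 40 matched a RefSeq gene by identifier and no symbol had changed.

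The study compared side population (SP) and main population (MP) cells of skeletal muscle and of bone marrow. SP cells are the small fraction that exports a DNA-binding dye through membrane pumps, and MP cells are those that retain it. The 4 groups were SP and MP cells from muscle and SP and MP cells from marrow, each of 5 samples of total RNA from adult C57BL/10SnJ mice, an inbred strain, and the labels give no further allele, treatment, exact age or sex. The 20 samples were hybridised to expression arrays, and the labels do not state whether replicates are separate animals or sorts, so p-values reflect the spread among these arrays alone, which could be technical.

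Matrix metalloproteases are zinc enzymes that cut collagens, laminins and other matrix proteins, and they are made as inactive precursors that other proteases activate. ADAM proteases are membrane-anchored relatives that mostly release the outer parts of growth factors, cytokines and adhesion molecules from the cell surface, while ADAMTS proteases are secreted and act mainly on proteoglycans and procollagens. TIMPs are small secreted proteins that block these enzymes, and in muscle and marrow the balance of the families takes part in matrix turnover, cell migration and the release of niche factors.

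The labels were checked against marker lists, using the sum of normalized signals of each list on each array. Endothelial markers summed to between 112000 and 201000 on muscle arrays and between 4640 and 16300 on marrow arrays, and fibroblast markers to between 95900 and 315000 and between 5050 and 8290. All 9 blood stem and progenitor markers were higher in marrow SP than in marrow MP cells. The muscle SP arrays 4 and 5 stood apart from the other 3. Their granulocyte sums were 3110 and 2790 against 16700 to 50700, their T and NK cell sums 4330 and 4050 against 17700 to 52400, and their pericyte and smooth muscle sums 101000 and 97700 against 40500 to 47900. On the log2 scale, GAPDH control probe sets at the 3′ end exceeded those at the 5′ end, a sign of RNA quality called the GAPDH ratio here, by 3.83 ± 0.61 in muscle SP and 2.66 ± 0.62 in muscle MP cells (mean ± SD, n = 5 each, exact two-sided permutation p = 0.0238, adjusted over 4 tests 0.0317). The ratio was 3.72 ± 0.60 in marrow SP and 2.67 ± 0.72 in marrow MP cells (n = 5 each, exact two-sided permutation p = 0.0397, adjusted 0.0397). The same log2 ratio for actin was 2.515 ± 0.403 in muscle SP and 1.437 ± 0.429 in muscle MP cells (exact two-sided permutation p = 0.0159, adjusted 0.0317). In marrow it was 2.071 ± 0.721 in SP and 0.98 ± 0.285 in MP cells (exact two-sided permutation p = 0.00794, adjusted 0.0317). The part of the actin ratio in the SP against MP differences was not tested. That of the GAPDH ratio was not tested beyond the fits with it as a covariate and without the 3 arrays where it was highest. These were marrow SP 4 and 5 and muscle SP 1. In bulk RNA, fewer cells of a type and less RNA per cell cannot be told apart.

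Sequences before the transcription starts are shown for the Mmp genes that lie side by side on chromosome 9, because 2 of them, Mmp3 and Mmp13, differed together between the muscle populations. In the RefSeq annotation 10 protein-coding genes run from Mmp13 to Mmp7, all 10 are Mmp genes, and 5 of them are members here. The 100 bases before the start are given 5′ to 3′, from RefSeq on GRCm38.p6. Capitals mark TGAGTCA or its other strand TGACTCA, the letters that AP-1 (Jun and Fos dimers) is known to bind, and TATAAA, the core motif known as TATA box. For Mmp12 and Mmp7, which have 2 windows each, the one with a match is shown.
Mmp13, chr9:7272414-7272513, plus strand: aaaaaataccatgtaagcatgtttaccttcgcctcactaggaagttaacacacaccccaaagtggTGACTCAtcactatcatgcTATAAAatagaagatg
Mmp12, chr9:7347274-7347373, plus strand: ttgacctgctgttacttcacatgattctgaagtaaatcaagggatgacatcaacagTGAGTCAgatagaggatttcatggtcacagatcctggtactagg
Mmp3, chr9:7445722-7445821, plus strand: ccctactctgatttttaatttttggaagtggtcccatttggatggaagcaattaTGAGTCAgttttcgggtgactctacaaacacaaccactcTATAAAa
Mmp10, chr9:7502242-7502341, plus strand: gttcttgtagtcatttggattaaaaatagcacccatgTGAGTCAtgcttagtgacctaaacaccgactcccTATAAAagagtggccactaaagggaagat
Mmp7, chr9:7691990-7692089, plus strand: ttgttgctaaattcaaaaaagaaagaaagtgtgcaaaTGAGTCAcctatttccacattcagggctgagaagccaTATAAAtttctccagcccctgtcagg
The stromelysin genes Mmp3 and Mmp10, the collagenase gene Mmp13 and the matrilysin gene Mmp7 held both motifs. The AP-1 letters ended 40 bases before the start in Mmp3, 29 in Mmp13 and 57 in Mmp10 and Mmp7. Windows of 4 further members whose levels differed most between tissues are given for contrast, with GGGCGG or its other strand CCGCCC, a GC box, in capitals.
Timp3, chr10:86300312-86300411, plus strand: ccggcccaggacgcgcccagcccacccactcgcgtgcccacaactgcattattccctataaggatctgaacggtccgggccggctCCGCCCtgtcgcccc
Adam8, chr7:139992563-139992662, minus strand: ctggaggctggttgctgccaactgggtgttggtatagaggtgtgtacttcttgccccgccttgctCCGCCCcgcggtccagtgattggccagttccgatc
Adam15, chr3:89350029-89350128, minus strand: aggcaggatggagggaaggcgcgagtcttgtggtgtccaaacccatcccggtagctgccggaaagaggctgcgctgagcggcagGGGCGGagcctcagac
Mmp14, chr14:54431498-54431597, plus strand: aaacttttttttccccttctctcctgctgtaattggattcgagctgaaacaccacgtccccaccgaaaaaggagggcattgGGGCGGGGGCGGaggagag
All 4 held a GC box and none held the AP-1 letters or TATAAA in the 250 bases searched.

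Of the 31 member genes, 19 had a window in the table, 23 windows in all. In the 250 bases before the start, the AP-1 letters (both strands) were present in 6 of the 23 windows against 4.46% of all 32851 mouse windows, TATAAA (on the gene's own strand) in 5 against 7.59%, both together in 4 against 0.481%, and the GC box (both strands) in 11 against 32.7%. The 7 windows of the chromosome 9 genes had a GC content of 37.2% to 53.2%. AP-1 letters were in 5 of these 7, AP-1 with TATAAA in 4, and a GC box in 0. The 16 windows of the other 14 genes had 50.0% to 79.2% GC, and 1 held AP-1 letters (Adam19), 1 TATAAA (Adamts1) and 11 a GC box. The median window of all genes had 52.4% GC. These matches describe the letters only, and the AP-1 and TATA motifs do not overlap in the windows shown.

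**Figure D1:**
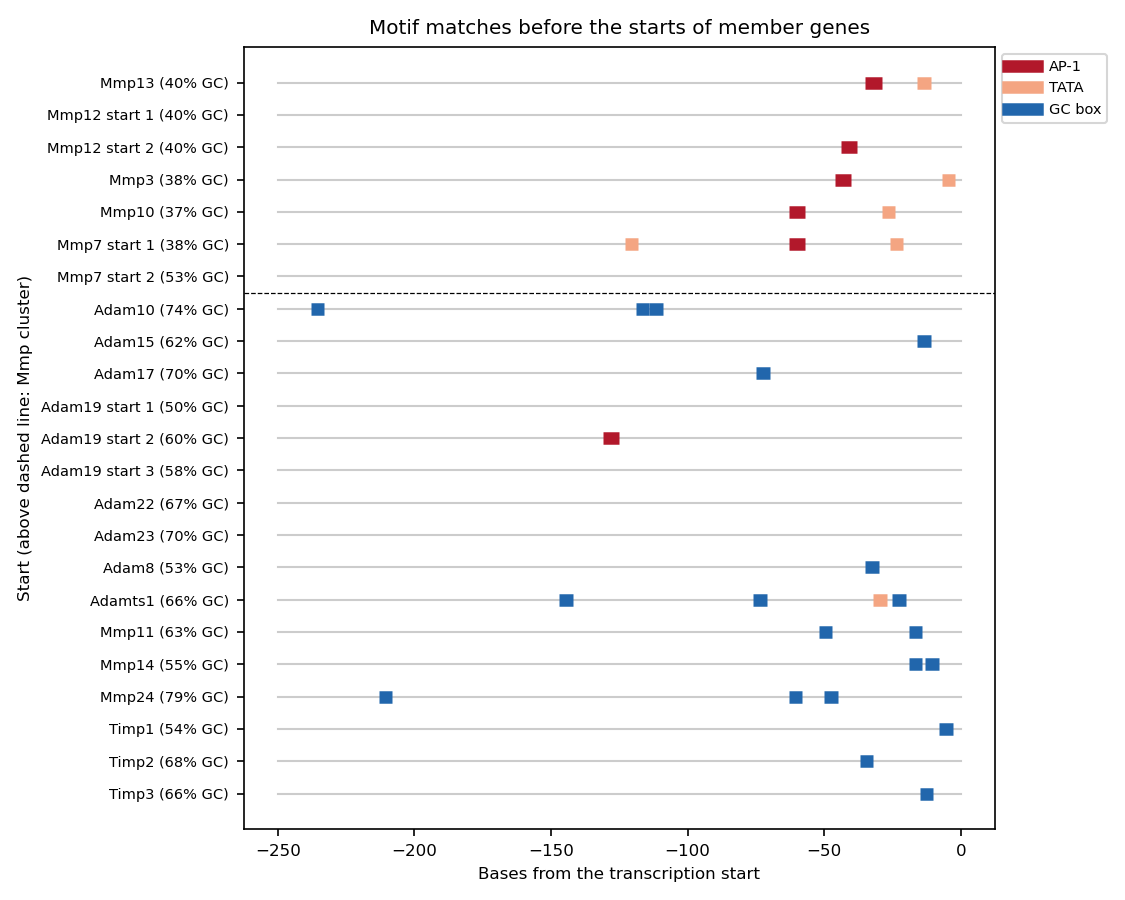
Positions of AP-1 letters, TATAAA and GC boxes in the 250 bases before 23 transcription starts of 19 member genes (x axis, bases from the start; each line is a window, with its GC content). The 7 windows of the chromosome 9 Mmp genes above the dashed line hold 5 windows with AP-1 letters and 0 with a GC box, against 1 and 11 of the 16 windows below it.

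Signals were quantile normalized, floored at 104.8 units (log2 6.71, the 25th percentile of all values) and tested where they exceeded that floor on at least 5 of the 20 arrays. Of the 40 member probe sets, 29 probe sets of 25 genes passed. The 11 that did not include every probe set of Adam2 (fertilin beta), Adam4, Mmp7 (matrilysin), Mmp10 (stromelysin-2), Mmp16 and Mmp24 (membrane-type MMPs). Mmp7, Mmp10, Mmp16 and Mmp24 were at the floor on all 20 arrays, Adam4 exceeded it on 2 arrays with at most 122.6 and Adam2 on 4 with at most 163.9. The others below the filter were second probe sets of Adam3 and Adam5 and 2 of the 3 probe sets of Timp2. A member that passed only because it was high in a group had to differ, so the counts that follow describe the 29 and support nothing about the families as a whole.

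**Figure D2:**
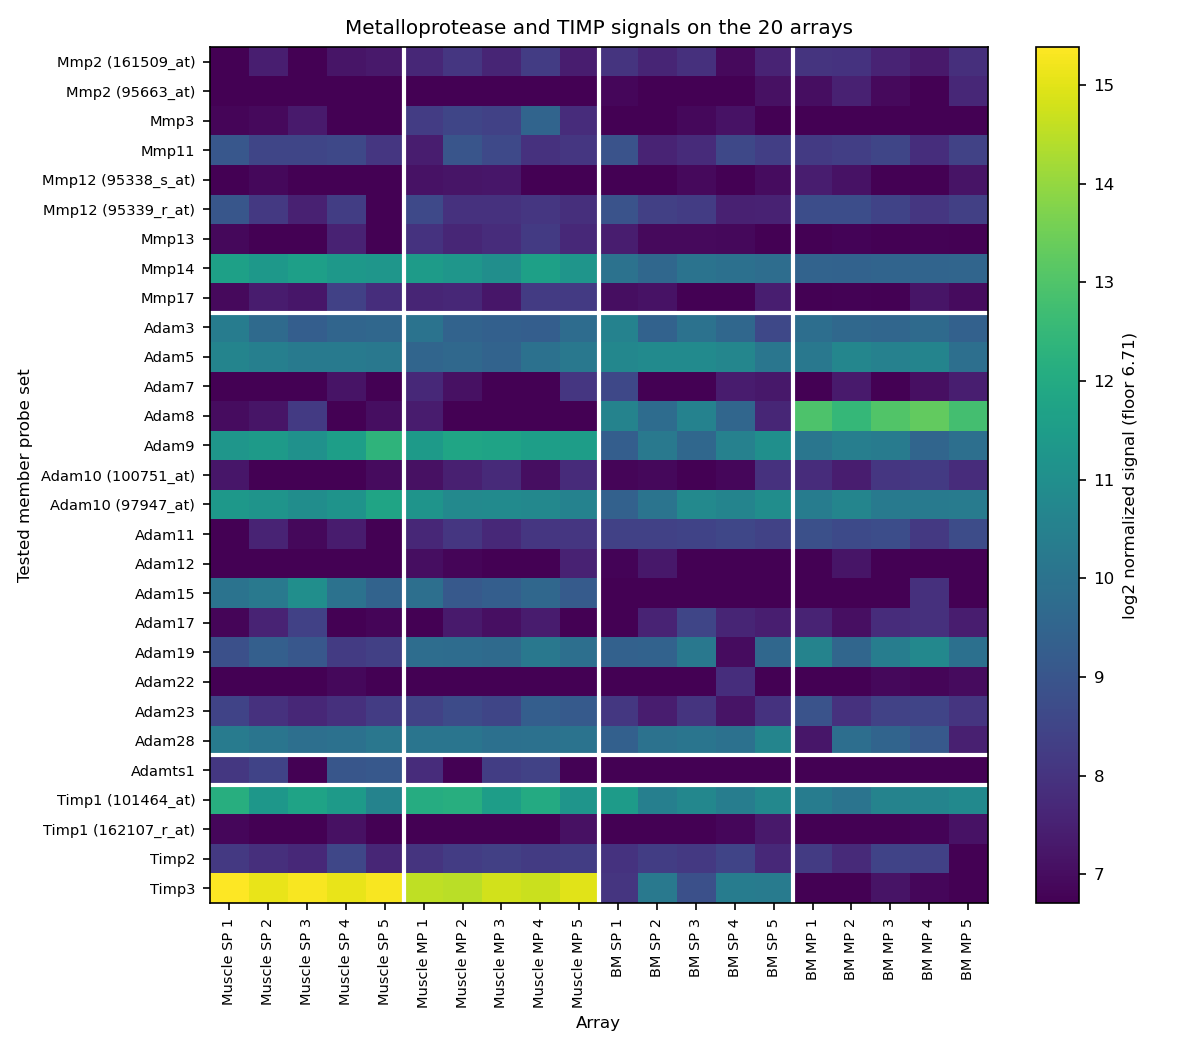
Log2 normalized signal (colour) of the 29 tested member probe sets (rows, by family) on the 20 arrays (columns, by group); BM is bone marrow. Colours are to be read along a row, since levels of different probe sets are not comparable. Along its row Timp3 separates the 10 muscle arrays from the 10 marrow arrays, and Adam8 is highest on the 5 marrow MP arrays.

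A member is called where limma's Benjamini-Hochberg adjusted p over all 10310 tested probe sets was under 0.05. In muscle, the secreted proteases Mmp3, Mmp13 and Mmp2 and the non-catalytic Adam11 and Adam23 were lower in SP than in MP cells, 5 of 29 members (17.2%) against 6.64% of all tested probe sets. Only Adam5 was higher, 1 of 29 (3.45%) against 5.1%. In marrow, Timp3 and Adam28 were higher in SP than in MP cells, 2 of 29 (6.9%) against 15.4% of all, and Adam8, Adam10, Adam19 and Adam23 were lower, 4 of 29 (13.8%) against 14.8%. The marrow shares were thus at or below the background.

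Between tissues, 7 of 29 members (24.1%, against 17.1% of all) were higher in muscle SP than in marrow SP cells, namely Adam9, Adam10, Adam15, Adamts1, Mmp14, Timp1 and Timp3. Adam8 and Adam11 were lower, 2 of 29 (6.9%) against 21.2% of all. In MP cells 9 members (31%, against 20.9%) were higher in muscle, Adam9, Adam15, Adam28, Mmp3, Mmp13, Mmp14, Mmp17, Timp1 and Timp3. Adam5, Adam8, Adam11 and Mmp2 were lower, 4 of 29 (13.8%) against 25.6%. The SP against MP change differed between tissues for 4 members, Adam8 in the higher direction (3.45%, against 8.69% of all) and Mmp3, Mmp13 and Timp3 in the lower (10.3%, against 9.85%). The median log2 difference of the 29 members was -0.08 in muscle SP against MP (0.03 over all tested), 0.02 in marrow SP against MP (0.02), -0.06 in muscle against marrow SP (-0.11), 0.16 in muscle against marrow MP (-0.14) and -0.09 for the difference between tissues (0.02). The comparisons share groups, so they are not independent of each other.

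Timp3, the TIMP that stays bound to the matrix and also inhibits ADAM sheddases such as Adam17, was the member with the largest difference between tissues. Its normalized signal was 42840, 35340, 40520, 35190 and 40030 on the muscle SP arrays 1 to 5 and 23890, 22880, 28140, 26770 and 32690 on the muscle MP arrays. On the marrow SP arrays it was 263.9, 1201, 456.1, 1324 and 1265, while 3 marrow MP arrays were at the floor and the other 2 read 144 and 117.7. None of the 4 groups overlapped another, in the order muscle SP, muscle MP, marrow SP, marrow MP. Timp3 was 6.59-fold higher in marrow SP than in marrow MP cells (log2 2.72 ± 0.32 SE, n = 5 each, adjusted p = 1.15e-06), 51.3-fold higher in muscle SP than in marrow SP cells (log2 5.68 ± 0.32, adjusted p = 1.97e-12) and 233-fold higher in muscle MP than in marrow MP cells (log2 7.87 ± 0.32, adjusted p = 4.82e-15). Because marrow MP cells sat at or near the floor, folds against them depend on it. With a floor at the 40th percentile the marrow fold of Timp3 was 2.95 and the MP fold between tissues 105, and with a pseudocount in place of the floor the latter was 135. In muscle the SP values were all above the MP values, but the difference of 0.54 ± 0.32 on the log2 scale was not called (adjusted p = 0.327). That standard error pools the spread of all 4 groups. The log2 SD of Timp3 was 0.13 in muscle SP, 0.20 in muscle MP, 1.06 in marrow SP and 0.20 in marrow MP cells. The missing call is therefore no sign that the muscle populations were alike. The SP minus MP change was 2.18 smaller in muscle than in marrow (log2 -2.18 ± 0.46, adjusted p = 0.0016), and this call was lost with the floor at the 40th percentile (log2 -1.03, adjusted p = 0.103).

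Endothelial markers moved with Timp3 in marrow and between tissues, and some were higher in SP cells of muscle, where Timp3 was not called. Fibroblast, satellite cell, and pericyte and smooth muscle markers moved with it between tissues. Markers of blood stem and progenitor cells and of T and NK cells moved with it in marrow, and so did the erythroid sums. Within marrow SP, the arrays 1 and 3, lowest for Timp3, had the lowest endothelial sums, 9350 and 10000, against 16300, 13500 and 16100 on arrays 2, 4 and 5. Of 11 endothelial markers, 8 were higher and 1 lower in marrow SP than in MP cells, with sums of 9350 to 16300 against 4640 to 5880, and Tek and Tie1 were at the floor on all marrow MP arrays. Blood stem and progenitor sums on the marrow SP arrays were likewise lowest on arrays 1 and 3, at 23100 and 26900 against 32400, 30000 and 40000, and 6290 to 7980 on the marrow MP arrays, with 9 of 9 markers higher in SP. T and NK cell sums were 44100 to 87300 against 4160 to 7250, highest on array 3, with 8 of 10 markers higher. Erythroid sums were 35800 to 71600 against 17400 to 24500, highest on array 1, with 2 of 6 markers higher and 0 lower. Between tissues 10 of 11 endothelial markers were higher in muscle SP and 9 in muscle MP cells, with 1 lower. In both populations 10 of 12 fibroblast and 8 of 9 pericyte and smooth muscle markers were also higher in muscle, with 0 lower. Of 10 satellite cell markers, 4 were higher in muscle SP and 8 in muscle MP cells, with 0 lower. Of the blood stem and progenitor markers, 2 were higher and 6 lower in muscle SP than in marrow SP cells. In muscle SP against MP cells 4 of 11 endothelial markers were higher and 0 lower, with sums of 163000 to 201000 against 112000 to 134000. T and NK cell markers had 5 of 10 higher and 0 lower there. Fibroblast and satellite cell markers went the other way, with 6 of 12 and 7 of 10 lower and 0 higher. The part of these cell types in the Timp3 levels was not tested.

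Timp1, a soluble inhibitor of most MMPs, was higher in muscle than in marrow. On its probe set 101464_at the muscle MP arrays read 4370, 4598, 2997, 4174 and 2438 and the marrow MP arrays 1297, 1054, 1556, 1589 and 1798, with no overlap. The fold was 2.52 (log2 1.33 ± 0.27, adjusted p = 0.000256), and 1.57 for the mean over both Timp1 probe sets. Muscle SP cells read 1530 to 4588 and marrow SP cells 1329 to 2836, which overlap, and the difference of 0.69 ± 0.27 (adjusted p = 0.0462) lost its call in 21 of 33 alternatives, with adjusted p up to 0.333. Leaving out any 1 of 14 arrays, among them muscle SP 1 to 4 and marrow SP 2 to 5, ended it (log2 0.51 to 0.73, adjusted p 0.0505 to 0.131). The probe set 162107_r_at of Timp1 lay near the floor, at most 157.4, and was not called in any comparison. Timp2, the inhibitor that also takes part in activating Mmp2, was tested on 1 of 3 probe sets, read up to 380.3 and was not called.

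Mmp3, or stromelysin-1, which cuts many matrix proteins and activates other MMP precursors, was the member with the largest fall in muscle SP cells. Muscle MP arrays read 305.9, 369.8, 337.6, 723.5 and 226.6. Muscle SP arrays read 115, 122.1 and 160.9 on arrays 1 to 3 and were at the floor on arrays 4 and 5. The groups did not overlap, and Mmp3 was 3.02-fold lower in SP (log2 -1.60 ± 0.22, adjusted p = 4.2e-05). Marrow SP cells read 120.3 and 140.2 on arrays 3 and 4 and were at the floor on the other 3, and the marrow MP arrays were at the floor or within rounding of it. Mmp3 was thus 3.46-fold higher in muscle MP than in marrow MP cells against the floor (log2 1.79 ± 0.22, adjusted p = 5.08e-07), and with the floor at the 10th percentile the fold was 6.12. In SP cells the tissues overlapped (log2 0.07 ± 0.22, adjusted p = 0.839). The change between SP and MP cells differed between tissues by -1.72 ± 0.32 (log2, adjusted p = 0.000478).

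Mmp13, the main interstitial collagenase of rodents and the gene that begins the chromosome 9 row, was likewise highest in muscle MP cells. Muscle MP arrays read 250.2, 200.5, 225.2, 288 and 210.4. Muscle SP arrays read 118.4 on array 1 and 188.1 on array 4 and were at the floor on the other 3, so the groups did not overlap. Mmp13 was 1.93-fold lower in muscle SP cells (log2 -0.95 ± 0.18, adjusted p = 0.00108). Marrow MP arrays read at most 109.9 and marrow SP arrays 171, 121.5, 122.2, 117.9 and the floor. The fold of muscle MP over marrow MP was 2.19 (log2 1.13 ± 0.18, adjusted p = 1.61e-05), and the SP minus MP change differed between tissues by -1.19 ± 0.25 (log2, adjusted p = 0.00195). Mmp3 and Mmp13 kept each of their calls in every alternative that tested them. With the floor at the 40th percentile (254.9 units) both failed the filter, so they were not tested there, and with the floor at the 10th percentile their log2 differences between tissues were -2.34 and -1.90.

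Mmp2, the gelatinase A that cuts denatured and basement membrane collagen, was dim on both of its probe sets. On 161509_at muscle SP cells read from the floor to 174 and muscle MP cells 170.7 to 303.2, and the log2 difference of -0.73 ± 0.23 (adjusted p = 0.0381) lost its call in 10 of 32 alternatives. Of these, 6 left out a single array (muscle SP 1 or 3 or muscle MP 1 to 4, log2 -0.78 to -0.62, adjusted p 0.0508 to 0.113). On 95663_at muscle MP arrays were at the floor or at most 105.4 and marrow MP arrays reached 202.3. Here the log2 difference of muscle against marrow MP was -0.45 ± 0.17 (adjusted p = 0.0315), and it lost its call in 9 of 32 alternatives, 6 of them without a single array (muscle MP 2 to 5 or marrow MP 2 or 5, log2 -0.45 to -0.33, adjusted p 0.0505 to 0.113). With the floor at the 10th percentile this difference was -1.67. The stromelysin-3 gene Mmp11 (168 to 538.7) and the macrophage elastase gene Mmp12 (up to 527.4 on 95339_r_at and 168.7 on 95338_s_at) were tested and not called in any comparison.

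Fibroblast, satellite cell and Schwann cell markers moved with Mmp3 and Mmp13 within muscle and between MP cells of the tissues. Macrophage markers moved with them within muscle only. In muscle SP against MP cells 6 of 12 fibroblast markers were lower, with sums of 95900 to 152000 against 223000 to 315000, and 10 of 12 monocyte and macrophage markers, with sums of 5520 to 16200 against 27400 to 35100. Adgre1 was at the floor on all muscle SP arrays. Satellite cell markers were lower too, 7 of 10, with sums of 3390 to 3840 against 11400 to 13700, and so were 3 of 7 Schwann cell markers, with sums of 7550 to 31100 against 30100 to 61800. Mmp3 was highest on the muscle MP array 4, which also had the highest fibroblast sum, 315000. Between tissues 10 of 12 fibroblast markers were higher in muscle MP than in marrow MP cells, where Col1a2, Sparc and Serpinf1 were at the floor. The same held for 8 of 10 satellite cell markers, with 0 lower and marrow MP sums of 2900 to 3580. Schwann cell markers had 4 of 7 higher and 1 lower, with marrow MP sums of 5620 to 6690. Monocyte and macrophage sums went the other way between tissues, at 127000 to 144000 on the marrow MP arrays, with 3 of 12 markers higher and 6 lower in muscle MP than in marrow MP cells. In SP cells 10 of 12 fibroblast markers were higher in muscle than in marrow, with sums of 95900 to 152000 against 5050 to 8290. Mmp3 and Mmp13 did not differ detectably between the SP cells of the tissues (log2 0.07 and -0.06, adjusted p = 0.839 and 0.834). The part of these cell types in the Mmp3 and Mmp13 differences was not tested.

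**Figure D3:**
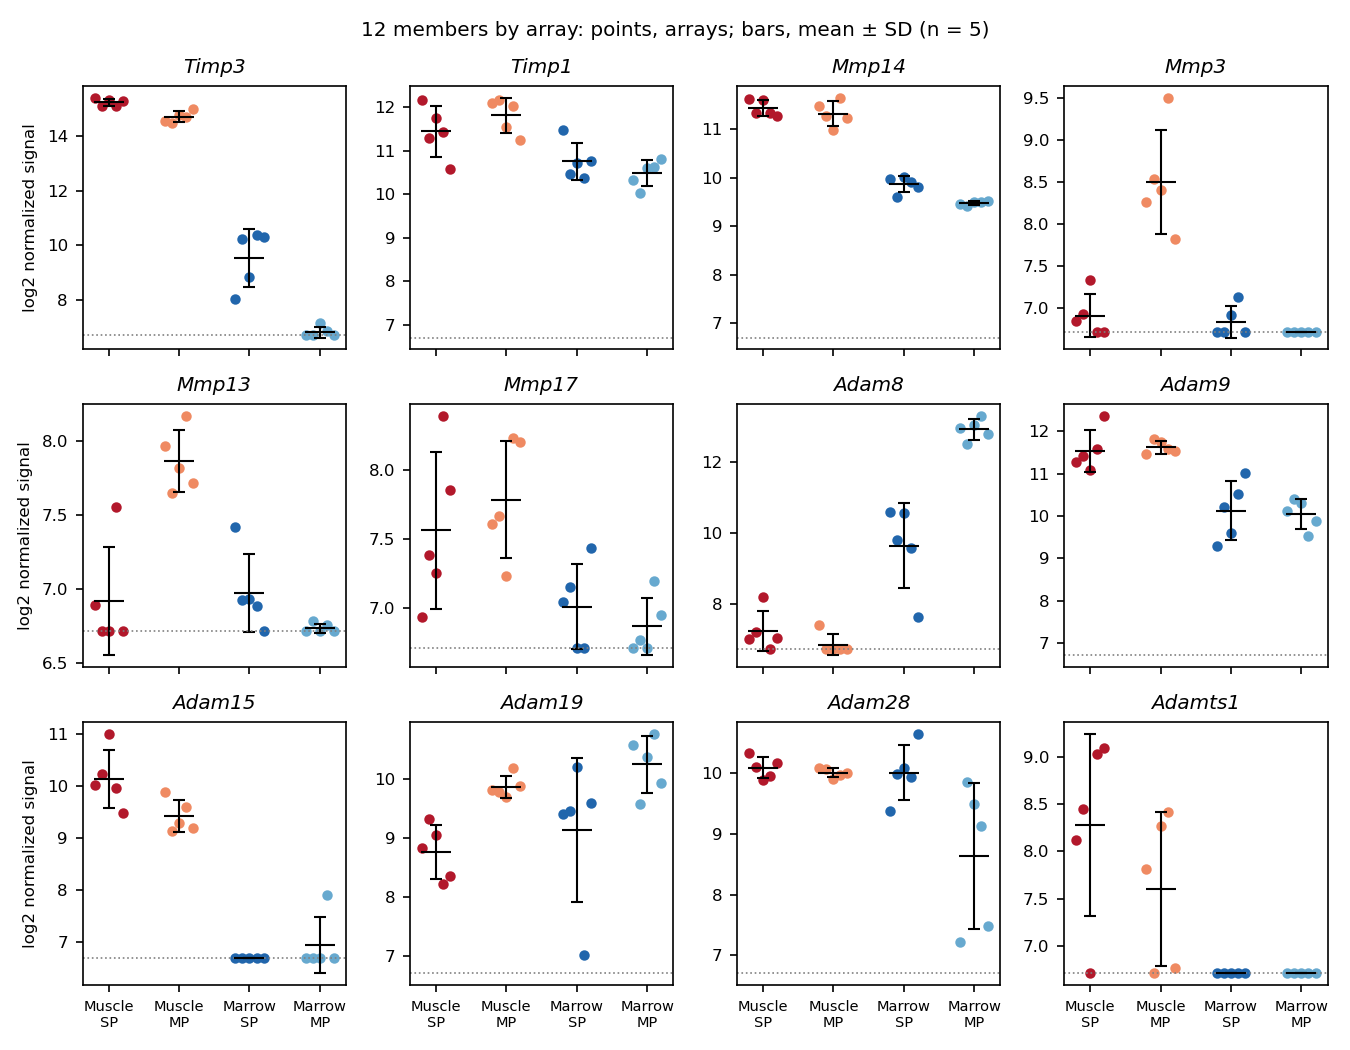
Log2 normalized signal of 12 member probe sets by group, with points for the 5 arrays of a group (in order 1 to 5), bars for mean ± SD and a dotted line at the floor of 6.71; each panel has its own axis. Mmp3 and Mmp13 are above the other groups in muscle MP cells, Adam8 is near 13 in marrow MP cells, and Timp3 falls from about 15 in muscle to the floor in marrow MP cells.

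Of the 4 membrane-anchored MMPs, Mmp14 was called between tissues in both populations and Mmp17 in MP cells, while Mmp16 and Mmp24 stayed at the floor. Mmp14, which activates the Mmp2 precursor at the cell surface and cuts collagen itself, read 3166, 2607, 3111, 2577 and 2477 on muscle SP arrays and 2867, 2473, 2043, 3208 and 2403 on muscle MP arrays. Marrow SP arrays read 1003, 777.4, 1041, 970 and 900.8, and marrow MP arrays 703.3, 687, 729.7, 724 and 740.6. Every muscle array was above every marrow array. Mmp14 was 2.97-fold higher in muscle in SP cells (log2 1.57 ± 0.15, adjusted p = 1.48e-08) and 3.58-fold in MP cells (log2 1.84 ± 0.15, adjusted p = 6.95e-10). In marrow every SP value lay above every MP value, but the log2 difference of 0.38 ± 0.15 was not called (adjusted p = 0.061). In muscle the populations overlapped (log2 0.11 ± 0.15, adjusted p = 0.729). Mmp17, a lipid-anchored MMP, read 149.9 to 300.0 in muscle MP and at most 146.5 in marrow MP cells, a difference of 1.89-fold (log2 0.92 ± 0.25, adjusted p = 0.004). In SP cells its difference of 0.55 ± 0.25 was not called (adjusted p = 0.0841).

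Adam8, a sheddase and adhesion protein known from neutrophils and monocytes, was the member with the largest difference between marrow populations. Marrow MP arrays read 7913, 5812, 8402, 10100 and 7035 and marrow SP arrays 1545, 887.2, 1513, 767.2 and 198.7, without overlap. Muscle SP arrays read 127.6, 145.8, 289.1, the floor and 131, and muscle MP arrays 167.4 on array 1 and the floor on the other 4. Adam8 was 9.72-fold lower in marrow SP than in marrow MP cells (log2 -3.28 ± 0.40, adjusted p = 1.53e-06). It was 5.33-fold lower in muscle SP than in marrow SP cells (log2 -2.41 ± 0.40, adjusted p = 3.36e-05), where the groups overlapped through the marrow SP array 5. It was 67.1-fold lower in muscle MP than in marrow MP cells (log2 -6.07 ± 0.40, adjusted p = 1.36e-11), or 30.3-fold with the floor at the 40th percentile and 39.8-fold with a pseudocount. With that higher floor the SP fold between tissues was 3.19. The SP minus MP change differed between tissues by 3.66 ± 0.56 (log2, adjusted p = 7.5e-05). Without the 3 arrays of highest GAPDH ratio, 2 of which are marrow SP arrays, the marrow fold was 6.06, the SP fold between tissues 8.22 and the log2 difference between the changes 3.03.

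Markers of granulocytes, of monocytes and macrophages and of the B lineage moved with Adam8 in marrow. The granulocyte sums were 294000, 219000, 289000, 230000 and 114000 on the marrow SP arrays 1 to 5 and 447000 to 487000 on the marrow MP arrays, and the lowest sum fell on array 5, the array lowest for Adam8. Of 13 granulocyte markers, 5 were lower in marrow SP than in marrow MP cells and none was higher. Monocyte and macrophage sums were 79900, 44200, 65300, 45600 and 26200 on the marrow SP arrays and 127000 to 144000 on the marrow MP arrays, lowest on array 5 again, with 5 of 12 markers lower and 0 higher. B lineage sums were 3820 to 7210 against 23200 to 41700, also lowest on array 5, with all 10 markers lower. Array 5 was not lowest for these cell types alone. Its erythroid sum, 35800, was the lowest of the marrow SP arrays too, although erythroid sums were higher in marrow SP than in marrow MP cells. Its GAPDH ratio, 4.225, was the highest of the marrow SP arrays. In muscle MP against marrow MP cells all 13 granulocyte markers, 6 of 12 monocyte and macrophage markers (3 higher) and 9 of 10 B lineage markers (1 higher) were lower, and Prg2 and Epx were at the floor on every muscle array. On the muscle arrays the granulocyte sums reached 50700 on SP array 2. The part of these cell types in the Adam8 differences was not tested.

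Adam15, a membrane protease known from endothelium that also carries an integrin-binding motif in humans, was bright in muscle and at the floor in marrow. Muscle SP arrays read 1038, 1199, 2065, 999.3 and 718.8 and muscle MP arrays 948.8, 567.7, 626.6, 779.2 and 590.8. All 5 marrow SP arrays and 4 of the 5 marrow MP arrays were at the floor, and the marrow MP array 4 read 241.9. Adam15 was at least 10.8-fold higher in muscle SP than in marrow SP cells against the floor (log2 3.43 ± 0.26, adjusted p = 2.13e-10) and 5.56-fold higher in muscle MP than in marrow MP cells (log2 2.48 ± 0.26, adjusted p = 2.92e-08). With floors at the 10th and 40th percentile the first value was 22.7 and 4.44, and the other 11.3 and 2.70. Between the muscle populations the values overlapped and the difference of 0.71 ± 0.26 was not called (adjusted p = 0.0747).

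Adam9, a widely expressed sheddase, read 2459, 2748, 2171, 3078 and 5285 on muscle SP arrays and 626.6, 1183, 781.6, 1463 and 2075 on marrow SP arrays. On muscle MP arrays it read 2807, 3613, 3464, 3054 and 2968 and on marrow MP arrays 1118, 1357, 1266, 736.5 and 937.6. Muscle arrays were above marrow arrays in both populations. The fold was 2.67 in SP cells (log2 1.42 ± 0.28, adjusted p = 0.000282) and 2.99 in MP cells (log2 1.58 ± 0.28, adjusted p = 6.14e-05). Adam9 did not differ detectably between SP and MP cells of muscle (log2 -0.08 ± 0.28, adjusted p = 0.913).

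Adam10, the sheddase of Notch receptors and cadherins, gave different answers on its 2 probe sets. On 97947_at muscle SP arrays read 1981 to 3477 and marrow SP arrays 676.6 to 1992, with a log2 difference of 0.92 ± 0.24 (adjusted p = 0.00349), and its muscle MP against marrow MP difference of 0.46 ± 0.24 was not called (adjusted p = 0.12). On 100751_at marrow SP arrays read from the floor to 245.5 and marrow MP arrays 168.3 to 289.1. Here the log2 difference was -0.81 ± 0.23 (adjusted p = 0.00949), and without further normalization it was -0.27 (adjusted p = 0.438). The mean over both probe sets was called in neither comparison (log2 0.37, adjusted p = 0.132 between SP cells, and log2 -0.41, adjusted p = 0.112 in marrow). Adam17, which releases Tnf and ligands of the EGF receptor, read up to 365 and was not called in any comparison.

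Adam19, a sheddase of neuregulins, was lower in marrow SP than in marrow MP cells, with 677.1, 700.8, 1173, 129.2 and 772.1 against 1530, 763.5, 1330, 1743 and 971.7. The groups overlapped and array 4 of marrow SP was far below the others. The fold was 2.16 (log2 -1.11 ± 0.40, adjusted p = 0.0391), and without that array the log2 difference was -0.58 (adjusted p = 0.102). The call was lost in 10 of 33 alternatives, 4 of them without a single array (that one or marrow MP 1, 3 or 4, log2 -1.08 to -0.58, adjusted p 0.0717 to 0.102). In muscle the SP arrays (299.4 to 641.4) lay below all MP arrays (830 to 1162), yet the log2 difference of -1.11 ± 0.40 was not called (adjusted p = 0.0776). Here too the standard error pools all 4 groups. The log2 SD was 0.46 in muscle SP and 0.19 in muscle MP cells, against 1.23 in marrow SP and 0.49 in marrow MP cells. The SP minus MP change did not differ detectably between tissues (log2 0.01 ± 0.57, adjusted p = 0.996).

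Adam28, a protease known from human lymphocytes, was measured on a probe set whose name ends in r_at and which may cross-hybridise. Marrow MP arrays read 149.1, 919.6, 720.5, 560.5 and 178.9 and marrow SP arrays 663.4, 1004, 1080, 980.5 and 1599. Muscle MP arrays read 1081, 1074, 955.5, 995.1 and 1026 and muscle SP arrays 947.7 to 1285. The 2 lowest values were the marrow MP arrays 1 and 5, and the spread of that group was the widest (log2 SD 1.20, n = 5). Adam28 was 2.58-fold higher in marrow SP than in marrow MP cells (log2 1.37 ± 0.37, adjusted p = 0.00712), a call lost when only those groups were fitted (adjusted p = 0.0872) and without the 3 arrays of highest GAPDH ratio (adjusted p = 0.0528). It was 2.58-fold higher in muscle MP than in marrow MP cells (log2 1.37 ± 0.37, adjusted p = 0.00421).

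Adam11 and Adam23 lack a working protease site and bind Lgi proteins or integrins. Adam11 read 451.2, 401.3, 434.3, 282.3 and 427.4 in marrow MP and 336.3, 334, 347.6, 381 and 342.9 in marrow SP cells. Muscle MP arrays read 206.6, 269.4, 208.7, 271.2 and 274.2, and muscle SP arrays 191.2 on array 2, 120 on array 3, 164.6 on array 4 and the floor on the other 2. The muscle values were below the marrow values in both populations. Adam11 was 2.62-fold lower in muscle SP than in marrow SP cells (log2 -1.39 ± 0.19, adjusted p = 2.37e-06, and 1.37-fold with the floor at the 40th percentile) and lower in muscle MP than in marrow MP cells (log2 -0.69 ± 0.19, adjusted p = 0.00407, and 0.107 with the floor at the 10th percentile). Muscle SP cells were also below muscle MP cells without overlap (log2 -0.88 ± 0.19, adjusted p = 0.00303), a difference of -0.06 with the floor at the 40th percentile (adjusted p = 0.863). Adam23 was lower in SP cells of muscle (202.3 to 351.6 against 346.1 to 628.3, log2 -0.78 ± 0.24, adjusted p = 0.0348) and of marrow (143.2 to 279.2 against 249.3 to 483.7, log2 -0.63 ± 0.24, adjusted p = 0.0478). These calls were lost in 10 and 22 of 33 alternatives. Leaving out any 1 of muscle SP 2 to 4, muscle MP 2, 4 or 5 ended the first (log2 -0.81 to -0.66, adjusted p 0.0508 to 0.105), and any 1 of 11 arrays the second, among them marrow SP 2 and 4 and marrow MP 1, 3 and 4 (log2 -0.63 to -0.49, adjusted p 0.0504 to 0.145). The related Adam22 read at most 232.6 and was not called.

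Adam5, Adam3 and Adam7 are known from testis and epididymis, and the signal of each in sorted muscle and marrow cells rests on a single probe set. Adam5 was above the floor on all 20 arrays on 162388_r_at (704.2 to 1851), whereas its other probe set was at the floor on 19 of 20 arrays and read 143.3 on the remaining one. On 162388_r_at muscle SP cells (1174 to 1593) lay above muscle MP cells (704.2 to 1150, log2 0.63 ± 0.20, adjusted p = 0.0387), and muscle MP cells were below marrow MP cells (949.4 to 1672, log2 -0.64 ± 0.20, adjusted p = 0.00974). The first call was lost in 11 of 33 alternatives, 7 of which left out a single array (muscle SP 1 to 4 or muscle MP 1 to 3, log2 0.56 to 0.65, adjusted p 0.0536 to 0.106). Adam3 (385.5 to 1504 on 161196_r_at), Adam7 (at most 387.4) and Adam12, known as meltrin alpha from myoblast fusion (at most 187.1), were tested and not called. The other Adam3 probe set, 100526_f_at, was at the floor on all 20 arrays.

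Adamts1, the secreted protease that cuts the proteoglycans aggrecan and versican, was above the floor in muscle only. Muscle SP arrays read 278.9, 350.5, the floor, 523.7 and 545.2 and muscle MP arrays 224.9, the floor, 309.3, 343.1 and 108.7, and all 10 marrow arrays were at the floor. In SP cells it was at least 2.97-fold higher in muscle against that floor (log2 1.57 ± 0.36, adjusted p = 0.00133), a fold that was 7.99 with the floor at the 10th percentile and 1.46 at the 40th. In MP cells the log2 difference of 0.89 ± 0.36 was not called (adjusted p = 0.0502). The highest values, on the muscle SP arrays 4 and 5, came with pericyte and smooth muscle sums of 101000 and 97700. Without these arrays the log2 difference of Adamts1 was 1.05 (adjusted p = 0.0345), a change whose cause was not tested.

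**Figure D4:**
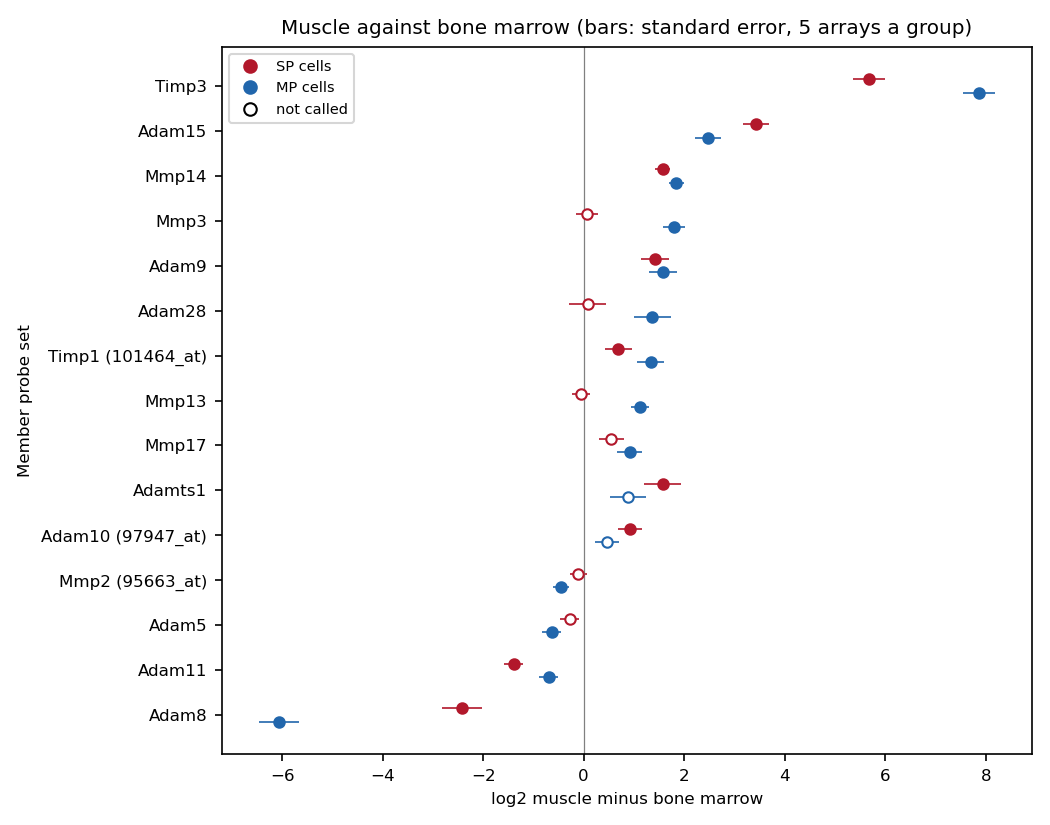
Log2 difference of muscle against bone marrow (x axis, bars are standard errors) for the 15 member probe sets called in either population, in SP cells (red) and MP cells (blue), with open circles where not called. Timp3 lies at 5.68 and 7.87 and Adam8 at -2.41 and -6.07.

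Contrasts of muscle with marrow in how SP cells differ from MP cells are set out in the plot of both changes. Adam8 and Timp3 changed in marrow by -3.28 and 2.72 and in muscle by 0.37 and 0.54, neither of which was called in muscle. Mmp3 and Mmp13 changed in muscle by -1.60 and -0.95 and in marrow by 0.12 and 0.24, neither of which was called in marrow. Adam8 was at the floor on 4 muscle MP arrays, and Mmp3 and Mmp13 were at or near it in marrow MP cells. A fall in SP cells could therefore hardly show for Adam8 in muscle or for Mmp3 and Mmp13 in marrow. For these 3 members the contrast cannot tell a change confined to 1 tissue from a level too low to fall in the other. For the other 25 members no difference between tissues was called, Adam28 included (log2 -1.29 ± 0.53, adjusted p = 0.0963).

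**Figure D5:**
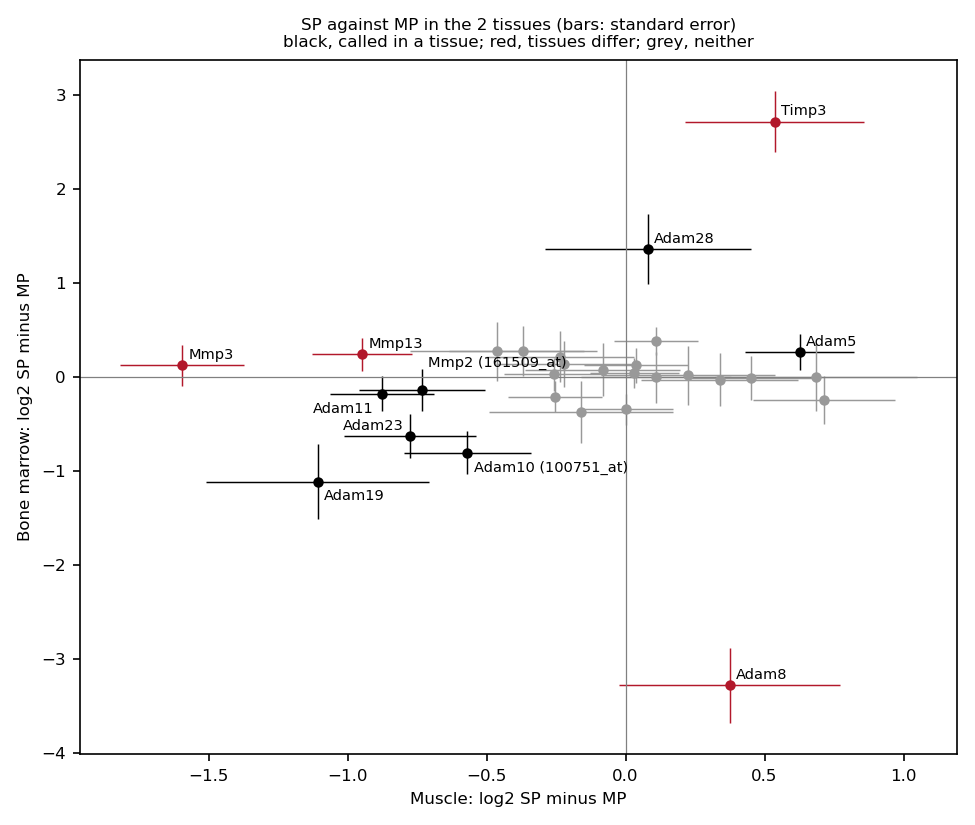
Log2 SP minus MP in muscle (x axis) against that in bone marrow (y axis) for the 29 tested member probe sets, with standard errors as bars. The 4 red members, Adam8, Timp3, Mmp3 and Mmp13, are those whose change differed between tissues, black members were called in a tissue and grey ones in neither. The floor limits a fall of Adam8 in muscle and of Mmp3 and Mmp13 in marrow.

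Genes that act on or beside these families were counted from 4 lists. Their counts are to be read against the share of all tested probe sets called higher and lower, which was 5.1% and 6.64% in muscle SP against MP, 15.4% and 14.8% in marrow SP against MP, 17.1% and 21.2% in muscle against marrow SP, and 20.9% and 25.6% in muscle against marrow MP cells. Of 7 tested genes of the plasminogen system, which activates MMP precursors, 0 were called between the muscle populations, and the median log2 difference was 0.18. In marrow Plat, the tissue plasminogen activator, was 2.22-fold higher in SP than in MP cells (log2 1.15 ± 0.18, adjusted p = 3.6e-05), while Plaur, the urokinase receptor (log2 -1.84 ± 0.24, adjusted p = 3.5e-06), and Serpinb2, a plasminogen activator inhibitor (log2 -2.10 ± 0.39, adjusted p = 0.000258), were lower. Plat was 32.6-fold higher in muscle SP than in marrow SP cells and 65.4-fold in MP cells, and Plaur and Serpinb2 were lower in muscle in both. Plau, urokinase itself, was lower in muscle MP cells (log2 -0.82 ± 0.30, adjusted p = 0.0271).

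Of 12 tested genes for other regulators, 8 were higher and 0 lower in muscle than in marrow in SP cells, and the same counts held in MP cells, with median log2 differences of 1.28 and 1.13. Serpinh1, the collagen chaperone, was 23.2-fold higher in SP and 150-fold in MP cells, and Lox, which crosslinks collagen, 6.98-fold and, against marrow MP cells at the floor, at least 19.8-fold. Tfpi2, a Kunitz inhibitor of plasmin, was 6.45-fold and 14.3-fold higher. The cysteine protease inhibitor Cst3 was 4.42-fold higher in SP cells and Lrp1, a receptor that clears proteases, 2.61-fold in MP cells. Between muscle SP and MP cells 1 of the 12 was called, Lox, which was lower in SP (log2 -1.12 ± 0.35, adjusted p = 0.0424). In marrow 2 were higher in SP cells, Serpinh1 (4.13-fold) and Tfpi2 (1.93-fold), and 3 lower, among them the proprotein convertases Pcsk7 (3.56-fold) and Pcsk6 (2.17-fold).

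Of 12 tested genes for other peptidases, 7 were higher in muscle than in marrow in SP cells, with 1 lower, and 7 in MP cells, with 0 lower, with medians of 2.49 and 1.73 on the log2 scale. They included Cpe, a carboxypeptidase (112-fold in SP and 218-fold in MP cells), the secreted serine protease Htra1 (16.2-fold and 23.1-fold) and Ctsk, the collagen-cutting cathepsin K (8.21-fold and 28.0-fold). Against marrow cells at the floor, the serine protease Prss23 was at least 21.1-fold higher in SP cells and Fap, a fibroblast protease, at least 19.3-fold in MP cells. In muscle SP against MP cells Ctsk (log2 -2.04 ± 0.36, adjusted p = 0.000582), Fap (log2 -1.53 ± 0.19, adjusted p = 1.22e-05) and Dpp4 (log2 -0.68 ± 0.22, adjusted p = 0.0465) were lower and Ece1, the endothelin-converting enzyme, was higher (log2 1.05 ± 0.24, adjusted p = 0.00463). In marrow Cpe (2.00-fold) and Anpep (1.59-fold) were higher in SP cells and 0 were lower.

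Of 20 tested substrates of ADAM sheddases, 7 were higher and 4 lower in muscle SP than in muscle MP cells. The adhesion molecule Icam1 (3.02-fold) and the growth factor Hbegf (2.85-fold) were higher, and Csf1r, the macrophage growth factor receptor (3.98-fold), and Tnf (2.83-fold) were lower. In marrow 4 were higher, among them Icam1 (3.72-fold), and 6 lower, among them App (3.55-fold), Cd44 (3.04-fold) and Vcam1 (2.70-fold). Between tissues 9 were higher and 5 lower in muscle SP cells, and 9 higher and 7 lower in muscle MP cells, with medians of 0.51 and 0.37. Kitl, the stem cell factor that marrow niche cells present to blood stem cells, was 121-fold higher in muscle SP than in marrow SP cells and, against marrow MP cells at the floor, at least 141-fold in MP cells. Dll1, a Notch ligand, was 11.9-fold and 8.79-fold higher, and Jam3, a junctional adhesion molecule, 8.04-fold and 21.8-fold. App was 6.91-fold higher in muscle SP cells, and Il6ra, the interleukin-6 receptor, 6.92-fold lower in muscle MP cells.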

How the data were processed

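Total RNA of 20 sorted samples, 5 in each of 4 groups named by the sample titles, had been hybridised to Affymetrix arrays. The authors deposited 1 linear signal intensity for each probe set on each array, scaled to a 2%-trimmed mean of 1501 per array, as read from the values. The software that summarised the probes is not given in the sources used here, nor is any background correction. Of 12488 probe sets, 66 controls were left out. Symbols came from the array's probe-to-gene table, where 10833 of the remaining 12422 probe sets have a single symbol, 396 several and 1193 none.

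Signals of the 12422 probe sets were quantile normalized, values under their 25th percentile (104.8) were set to it, and log2 was taken. The floor shrinks folds of dim genes, and quantile normalization removes overall differences between arrays, whose medians ran from 318.8 to 613. The 10310 probe sets above the floor on at least 5 of 20 arrays entered 1 fit over all arrays in limma 3.58.1 under R 4.3.3 (lmFit and eBayes, two-sided, Benjamini-Hochberg over all tested, threshold 0.05), a step tested on simulated data. The number of arrays limits the precision. Folds are 2 to the power of the log2 difference, and are lower bounds against a group wholly at the floor. Probe sets with names ending in r_at, s_at, f_at or i_at may cross-hybridise, which applies to members of Adam2, Adam3, Adam5, Adam28, Adamts1, Mmp12, Timp1 and Timp2. The highest correlation between 2 arrays was 0.9811, so none was taken as a duplicate. Replicate numbers were treated as names only in the main fit, since same-numbered deviations did not all correlate above 0.1 in any pair of groups. This rule cannot exclude a pairing by number.

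Every member is accounted for by name. Members called in any of the first 4 comparisons are described, and those with a log2 change of at least 1 in size are given array by array. From the lists of the plasminogen system, other regulators, other peptidases and ADAM substrates, called genes among the 4 largest changes of a list are named. Members, cell type markers and lists were chosen with earlier results of these data known. Alternatives were other scalings, floors and filters, a pseudocount, other limma options, the groups compared alone, a replicate block, a GAPDH ratio covariate, means over a gene's probe sets, arrays left out and, chosen after seeing the data, a fit without the muscle SP arrays 4 and 5. Promoter windows were RefSeq's, on GRCm38.p6. Python 3.11.15 and matplotlib 3.10.9 drew the figures.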

Additional observations from a re-analysis of the deposited data

Results flagged for a closer look

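The change from MP to SP cells differed between muscle and bone marrow for 4 members, by a test of the difference itself in limma. On the log2 scale the muscle change less the marrow change was 3.656 for Adam8, -1.72 for Mmp3, -1.189 for Mmp13 and -2.184 for Timp3, with adjusted p of 7.5e-05, 0.000478, 0.00195 and 0.0016. Adam8 in muscle MP cells and Mmp3 and Mmp13 in marrow MP cells lay mostly at or near the floor, so a lower SP level could hardly show there.

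In 21 of 111 sets of 5 arrays, 1 array stood far from the other 4, where chance gives about 1 in 20. In 10 of the 21 the other 4 arrays were all at the floor of 6.711 (log2), so that any value above it stands apart. These are Adam7 at 7.158 on muscle SP 4, Adam8 at 7.388 on muscle MP 1, Adam12 at 7.213 on marrow MP 2, Adam15 at 7.918 on marrow MP 4 and Adam22 at 6.903 on muscle SP 4. They include Mmp2 (95663_at) at 6.728 on muscle SP 5 and 6.72 on muscle MP 5, Mmp3 at 6.712 on marrow MP 2, Mmp12 (95338_s_at) at 6.899 on muscle SP 2 and Timp1 (162107_r_at) at 7.114 on muscle MP 5.

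Of the other 11, 5 were on marrow SP arrays 4 and 5, 2 of the 3 with the highest ratio of 3′ over 5′ GAPDH signal. Adam19 read 7.013 on marrow SP 4, where the other arrays read 9.403 to 10.196, and Adam22 read 7.862 there, where the others read at most 6.734. On marrow SP 5, Adam5 (162388_r_at) read 10.132 below the others' 10.689, Adam10 (100751_at) 7.939 above their 6.901, and Timp1 (162107_r_at) 7.298 above their 6.848. The part of the ratio in these values was not tested. The floor also acts on some of the 11. Of the other 4 arrays, 3 were at the floor for Adam12 on marrow SP 2 and Mmp13 on muscle SP 4. For Adam22 on marrow SP 4 and Timp1 (162107_r_at) on marrow SP 5 and marrow MP 5, 2 were, and for Adam10 (100751_at) 1 was. The chance rate does not hold for sets with arrays at the floor. Marrow MP arrays gave Adam10 (97947_at) at 10.644 on array 2, Adam11 at 8.141 on array 4 and Timp1 (162107_r_at) at 7.14 on array 5. The remaining values were Adam12 at 7.278 on marrow SP 2, Mmp12 (95339_r_at) at 8.627 on muscle MP 1 and Mmp13 at 7.555 on muscle SP 4.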

How the results depend on the processing

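Of 38 member calls, 18 were tested and kept in every alternative, 13 were lost in at least 1 and 0 changed sign. The remaining 7, those of Mmp3, Mmp13 and Mmp17, were kept wherever tested but, with 3 of the 13, failed the filter with the floor at the 40th percentile. The calls tested and kept throughout include every one of Adam8, Adam9, Adam15 and Mmp14. Averaging the probe sets of each gene ended calls of Adam10, Mmp2 and Timp1. The most often lost were Adam23 in marrow and Timp1 between SP cells. Counts of called members with 29 tested were small, so that 1 or 2 genes move them by over 1.5 times, and dim members are limited by the floor. With no further normalization 3 members were lower in muscle SP than MP cells, 5 higher and 1 lower in marrow SP than MP cells, and 7 lower in the difference between tissues. In muscle SP against MP cells 0 were higher with median scaling, with the floor at the 10th percentile, with the GAPDH covariate and without the 3 arrays of highest GAPDH ratio, and 2 were higher with the floor at the 40th percentile, in a fit of only the groups compared and without the muscle SP arrays 4 and 5. In the same comparison 2 were lower with the floor at the 40th percentile and 3 with the GAPDH covariate. In marrow SP against MP cells 2 were lower with floors at the 10th and 40th percentile, no filter, only the groups compared, the GAPDH covariate and without the 3 arrays, where 1 was higher. Without the 3 arrays 5 were lower in muscle SP than marrow SP cells. In the difference between tissues 0 were lower with the floor at the 40th percentile, where Mmp3 and Mmp13 were not tested, and 2 higher without the muscle SP arrays 4 and 5. The cause of the other moves was not tested.

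Leaving out each array in turn gave 0 to 2 higher and 3 to 6 lower in muscle SP against MP cells, 2 to 4 lower in marrow SP against MP cells, 2 to 4 lower in muscle against marrow SP cells and 1 to 2 higher in the difference between tissues. Correlations of same-numbered deviations ran from -0.141 to 0.296, and 4 of 5 exceeded 0.1 between muscle MP and marrow MP cells. They cannot decide whether the numbers mark shared sorts or animals, since arrays of different numbers were not compared. With the replicate block 1 was higher and 5 lower in muscle SP against MP cells, 2 and 4 in marrow, 8 and 2 between SP cells, 9 and 4 between MP cells and 1 and 3 in the difference between tissues, and it ended no call.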
